A study of Caenorhabditis elegans with 18 samples.

Results

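The genes described here are mtl-1 (WBGene00003473) and mtl-2 (WBGene00003474), both metallothionein genes of Caenorhabditis elegans, which were matched by symbol among the 47020 gene rows of the expression tables. The 2 genes were followed through every comparison for which expression values were deposited. RNA came from whole N2 worms fed 1 of 3 kinds of RNAi bacteria, and each RNAi was sampled without cadmium and after 300 μM cadmium for 12 h, so that 6 groups of 3 libraries were sequenced. In control(RNAi) the bacteria carried an empty vector whose dsRNA matches no worm gene, in numr-1/2(RNAi) the dsRNA targets the identical gene copies numr-1 and numr-2, and in ints-4(RNAi) it targets a subunit of the Integrator complex. All worms had a wild-type genome and ate dsRNA-producing bacteria from the first larval stage. Late in the third larval stage they were moved to new RNAi agar with or without the metal. The worms taken for RNA are gravid young adults according to the series' design text, and from late in the fourth larval stage to young adult according to the study's methods, which cannot be settled here. Because whole animals were used, a lower value can reflect fewer cells of a type or less RNA per cell, and these cannot be told apart.

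Metallothioneins are small proteins rich in cysteine, whose thiol groups hold zinc, copper and cadmium ions. In C. elegans both genes are expressed in the intestine when worms meet cadmium, and mtl-1 is also expressed without added metal in a few cells of the posterior pharynx. The intestinal GATA factor ELT-2 is needed for their expression with cadmium, the nuclear receptor HIZR-1 for the response of mtl-1 to excess zinc, and mtl-1 is widely used as a readout of the FOXO factor DAF-16.

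Both genes lie on chromosome V of WBcel235 on the minus strand, and neither overlaps another annotated gene. mtl-1 runs from 6691371 to 6691863, with 2 exons of 47 and 326 bases around an intron of 120 bases, and its 228 coding bases give a protein of 75 residues. mtl-2 runs from 14018270 to 14018673, also has 2 exons, with an intron of 57 bases, and its 192 coding bases give 63 residues. Each has 1 annotated transcript, of 373 and 347 bases. No alternative splicing event of either gene was among the 18785 rows of the 25 deposited splicing tables, which cover 3478 genes.

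The deposited expression value of a gene in a group is a mean over its 3 libraries of reads divided by a scaling factor for each library. Because these means are written to 15 significant digits, the whole reads of each library could be worked out from them, and they are given here as scaled reads, which are reads divided by a size factor common to all 18 libraries. Libraries held 33072783 to 40521063 reads on genes. The libraries of a group are called a, b and c, because nothing in the values ties them to the replicate numbers of the labels. The study calls the libraries of a group biological replicates. The p-values by limma set a difference against the variation between libraries within groups. That variation is estimated over all 6 groups together and drawn toward that of genes of like level. The dsRNA targets were checked first. In ints-4(RNAi), ints-4 itself had 650 ± 54 scaled reads (SD, n = 3) against 1508 ± 184 in control(RNAi), and with cadmium 602 ± 101 against 1211 ± 134. The unexposed numr-1/2(RNAi) worms had 2 ± 2 scaled reads of numr-1, against 3 ± 2 in control(RNAi). For numr-2 they had 29 ± 12 against 25 ± 17, so the mean of numr-2 was not lower in the knockdown (log2 fold change 0.40, adjusted p = 0.418 by limma). With cadmium numr-2 had 53 ± 10 scaled reads in numr-1/2(RNAi) against 138 ± 8 in control(RNAi), although reads of the 2 identical copies cannot be assigned with certainty.

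mtl-1 was low in every group without cadmium and rose by more than an order of magnitude with it. In control(RNAi), mtl-1 had 362, 230 and 199 scaled reads without cadmium. With cadmium, mtl-1 had 6428, 6297 and 6463. The groups did not overlap, and the exposed libraries lay close together while libraries without cadmium differed up to 1.81-fold. The deposited group values of mtl-1 were 259 and 6337, a 24.5-fold rise, and limma on the library values gave a log2 fold change of 4.64 ± 0.19 (SE, adjusted p = 1.07e-11). This placed the log2 fold change of mtl-1 as number 44 from the highest of 16096 genes tested.

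mtl-2 started far higher and rose much less. In control(RNAi), mtl-2 had 16876, 8913 and 13762 scaled reads without cadmium. With cadmium, mtl-2 had 30070, 30865 and 28914. Every exposed library was above every library without cadmium. The deposited values gave a 2.29-fold rise, and limma gave a log2 fold change of 1.23 ± 0.21 (adjusted p = 0.000214). Both members were therefore called higher with cadmium in control(RNAi), against a background of 15.6% of all genes tested called higher. At high read numbers a group value can have several whole-read solutions, and each of the 3 cadmium groups has 4 for mtl-2. They were read with the solution in which libraries differ least, which can make their spread too small, so each library value of mtl-2 with cadmium, and each overlap read from it, rests on this choice. With the next solution 1 exposed library would lie in the range without cadmium, the log2 fold change of mtl-2 was 0.99 and the adjusted p by limma 0.14. The deposited 2.29-fold rise does not depend on the choice. Stage and tissue markers moved with cadmium too. In control(RNAi) the 6 yolk protein genes vit-1 to vit-6, which the adult intestine makes for oocytes, summed to 84050 to 118498 scaled reads without and 12159 to 18326 with cadmium, with all 4 that could be tested called lower. Of 6 germline markers 5 were called lower and of 8 intestine markers 4, where 17.4% of all genes were. No intestine marker was called higher. Summed, the 9 intestine markers nevertheless had 83870 to 87506 scaled reads without and 98996 to 122211 with cadmium. The part of these shifts in the results for mtl-1 and mtl-2 was not tested.

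**Figure D1:**
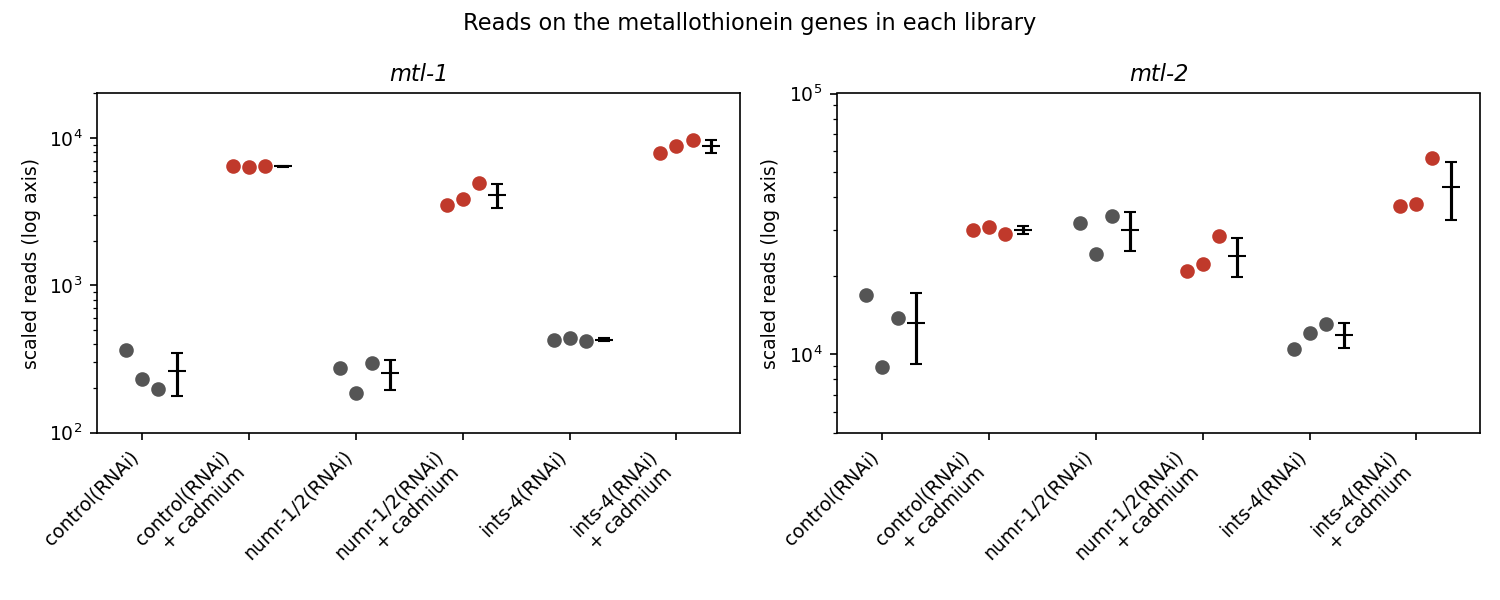
Scaled reads of mtl-1 (left) and mtl-2 (right) in each of the 18 libraries on log axes, grey without and red with cadmium; bars are the mean and SD of 3 libraries. For mtl-1 all 9 exposed libraries, from 3495 to 9619, are above all libraries without cadmium, whereas for mtl-2 the libraries of numr-1/2(RNAi) without cadmium, from 24326 to 33882, overlap those of the same RNAi with cadmium.

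In numr-1/2(RNAi), cadmium again raised mtl-1. Without cadmium, mtl-1 had 276, 186 and 296 scaled reads in numr-1/2(RNAi). With cadmium, mtl-1 had 3495, 3861 and 4941. The groups did not overlap. The deposited values rose 16.6-fold, and the log2 fold change by limma was 4.03 ± 0.19 (adjusted p = 6.14e-11), where 17.8% of all genes were called higher and 18.8% lower. Yolk genes (4 of 4), germline (4 of 6), intestine (4 of 8) and pharynx markers (4 of 7) were called lower in this comparison. Called higher were 1 intestine marker, 1 pharynx marker and 2 of 6 neuron markers. The part of these shifts in the result was not tested.

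mtl-2, by contrast, did not pass the test for cadmium in numr-1/2(RNAi). Without cadmium, mtl-2 had 31788, 24326 and 33882 scaled reads. With cadmium, mtl-2 had 20783, 22182 and 28477. The groups overlapped, and the exposed group had the lower mean. The ratio of the deposited values with over without cadmium was 0.81, and the log2 fold change was -0.33 ± 0.21 (adjusted p = 0.248), with a 95% interval from -0.78 to 0.11.

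In ints-4(RNAi), cadmium raised both genes. Without cadmium, mtl-1 had 428, 439 and 419 scaled reads, and with it 7851, 8874 and 9619. The deposited values of mtl-1 rose 20.5-fold, and the log2 fold change was 4.35 ± 0.19 (adjusted p = 8.5e-11). It was number 9 from the highest of all genes tested. For mtl-2 the libraries without cadmium had 10485, 12069 and 13019 scaled reads, and those with cadmium 37133, 37617 and 56529. No exposed library overlapped an unexposed one, and library c stood above the other exposed libraries. The deposited values of mtl-2 rose 3.7-fold and the log2 fold change was 1.86 ± 0.21 (adjusted p = 8.92e-06). Both members were called higher, against 9.24% of all genes. Here 5 of 6 germline markers and 1 of 4 yolk genes were called lower, beside 6.68% of all genes. Of 8 intestine markers 1 was called lower and 1 higher. The part of these shifts in these results was not tested.

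**Figure D2:**
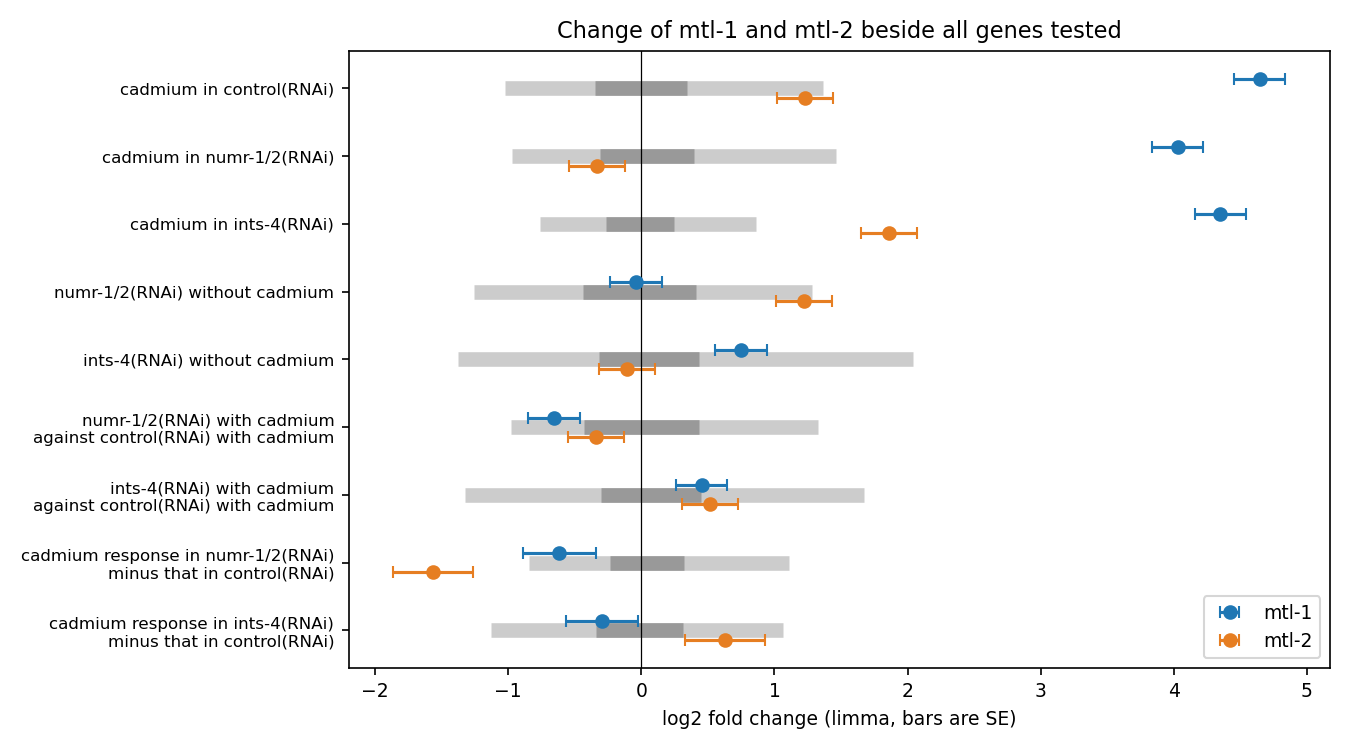
Log2 fold changes of mtl-1 (blue) and mtl-2 (orange) by limma with their SE in the 7 comparisons and in the 2 differences between cadmium responses; light grey bars span the middle 90% and dark grey bars the middle 50% of all 16096 genes tested. mtl-1 lies at 4.03 to 4.64 in the cadmium comparisons, beyond the grey bars, while mtl-2 lies at 1.23, -0.33 and 1.86.

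The RNAi treatments were next compared without cadmium. numr-1/2(RNAi) raised mtl-2 and not mtl-1. The 3 libraries of numr-1/2(RNAi), between 24326 and 33882 scaled reads, were all above the 3 of control(RNAi), between 8913 and 16876, and they overlapped those of control(RNAi) with cadmium. The deposited values of mtl-2 rose 2.28-fold, and the log2 fold change was 1.22 ± 0.21 (adjusted p = 0.000232), in a comparison where 21.8% of genes were called higher. In the fit with the next solution of mtl-2 in the cadmium groups the adjusted p by limma was 0.055. For mtl-1 the libraries of both groups overlapped, with a log2 fold change of -0.04 ± 0.19 (adjusted p = 0.887) and a 95% interval from -0.45 to 0.37.

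Markers of stage and tissue moved in the same comparison. The summed scaled reads of the 6 yolk genes were 293787 to 480656 in numr-1/2(RNAi) and 84050 to 118498 in control(RNAi), and all 4 yolk genes that could be tested were called higher (21.8% of all genes were called higher and 21.9% lower). The 6 germline markers summed to 74288 to 92204 against 46455 to 54624, with 5 called higher. The 6 neuron markers summed to 6151 to 6971 against 10383 to 12172, with all 6 called lower. The 9 intestine markers summed to 84489 to 84671 against 83870 to 87506, with 0 of the 8 tested called higher and 3 lower. None of the markers was at 0 in every library. The part of these shifts in the result for mtl-2 was not tested.

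ints-4(RNAi) without cadmium gave the opposite order, with mtl-1 called higher and mtl-2 not called. The mtl-1 libraries of ints-4(RNAi), from 419 to 439 scaled reads, were all above those of control(RNAi), from 199 to 362. The deposited values of mtl-1 rose 1.63-fold and the log2 fold change was 0.75 ± 0.19 (adjusted p = 0.00495). In this comparison 18.8% of genes were called higher. mtl-2 had a log2 fold change of -0.11 ± 0.21 (adjusted p = 0.717), with a 95% interval from -0.55 to 0.33, and its ints-4(RNAi) libraries lay within the range of control(RNAi). Yolk genes moved here as well, but down, with a sum of 17695 to 19568 and all 4 tested called lower, beside 20.2% of all genes. Of 8 intestine markers tested, 5 were called lower and 1 higher. The sum of the 9 intestine markers was 89335 to 98603 in ints-4(RNAi) and 83870 to 87506 in control(RNAi). The part of these shifts in the result for mtl-1 was not tested.

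The RNAi treatments were then compared with cadmium in every group. mtl-1 was lower in numr-1/2(RNAi) than in control(RNAi), with all 3 libraries, from 3495 to 4941 scaled reads, below the lowest control library at 6297. The log2 fold change was -0.66 ± 0.19 (adjusted p = 0.0114), and 21.9% of genes were called lower and 22.3% higher. This call was lost with libraries scaled by their total reads, where the log2 fold change was -0.47 and the adjusted p by limma 0.0548. Without library a of numr-1/2(RNAi) with cadmium it was -0.55 with an adjusted p of 0.0541. For mtl-2 the highest library of numr-1/2(RNAi), at 28477, was just below the lowest of control(RNAi), at 28914, and the log2 fold change of -0.34 ± 0.21 did not pass the test (adjusted p = 0.198). Pharynx markers were lower in the same comparison, with a sum of 11621 to 13966 in numr-1/2(RNAi) and 21151 to 40607 in control(RNAi) and 7 of 7 called lower, as were 5 of 6 neuron markers. Yolk genes (4 of 4) and germline markers (6 of 6) were called higher. The part of these shifts in the result for mtl-1 was not tested.

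ints-4(RNAi) with cadmium had the highest level of both genes. All 3 of its libraries were above all 3 of control(RNAi) with cadmium for each gene. For mtl-2 this holds with the solution of least spread, and with the next solution the libraries of the 2 groups overlapped. The share of all genes whose libraries separate in this way is not given here. The log2 fold change was 0.45 ± 0.19 for mtl-1 (adjusted p = 0.0739) and 0.52 ± 0.21 for mtl-2 (adjusted p = 0.0616), so neither passed the test, in a comparison where 38.4% of genes were called in either direction. Of 4 yolk genes tested, 1 was called higher and 2 lower, and of 8 intestine markers also 1 and 2. The part of these shifts in the values of mtl-1 and mtl-2 was not tested. For mtl-1 the call changed with the fit. Voom weights gave an adjusted p by limma of 0.0203 and a fit of these 2 groups alone 0.0163. Without library a of control(RNAi), the adjusted p was 0.0261 for mtl-1 and 0.0397 for mtl-2. The mtl-1 difference also passed without library b of unexposed numr-1/2(RNAi) (adjusted p = 0.0467 by limma), and that of mtl-2 without library b of control(RNAi) (0.0251) or library a of ints-4(RNAi) with cadmium (0.0499).

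Whether an RNAi changed the response to cadmium was tested as a difference of responses. For mtl-2 the response in numr-1/2(RNAi) minus that in control(RNAi) was -1.56 ± 0.30 on the log2 scale (adjusted p = 0.00299), where 3.58% of genes were called lower. With the next whole-read solution of mtl-2 in the cadmium groups it was -1.44 with an adjusted p by limma of 0.266, so the call rests on the solution with the least spread. For mtl-1 the same difference was -0.62 ± 0.27 (adjusted p = 0.212), though without library a of control(RNAi) it was -0.87 (adjusted p = 0.0259). In ints-4(RNAi) the response minus that in control(RNAi) was 0.63 ± 0.30 for mtl-2 (adjusted p = 0.194) and -0.30 ± 0.27 for mtl-1 (adjusted p = 0.553). Neither passed the test, in a comparison where 13.5% of genes were called in either direction, although without library b of control(RNAi) the value for mtl-2 was 0.89 (adjusted p = 0.0312). These differences share the control(RNAi) libraries.

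From lowest to highest group mean, mtl-1 had 253 ± 59 scaled reads in numr-1/2(RNAi), 264 ± 86 in control(RNAi) and 429 ± 10 in ints-4(RNAi). With cadmium, mtl-1 had 4099 ± 752 in numr-1/2(RNAi), 6396 ± 87 in control(RNAi) and 8781 ± 888 in ints-4(RNAi). Only the 2 lowest neighbours in this order overlap. The order of mtl-2 was ints-4(RNAi) with 11858 ± 1280, control(RNAi) with 13184 ± 4013 and numr-1/2(RNAi) with cadmium at 23814 ± 4098. Above them, mtl-2 had 29949 ± 981 when control(RNAi) worms met cadmium, 29999 ± 5023 in unexposed numr-1/2(RNAi) and 43760 ± 11061 in ints-4(RNAi) with cadmium. Here the first 2 groups overlap, as do the 2 groups near 30000. With the solution of least spread, numr-1/2(RNAi) overlaps with and without cadmium, and the group at 43760 stood above all others.

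Because the genes respond to different degrees, their ratio depends on the metal. Per kilobase of transcript and within each library, mtl-2 had 50.2, 41.7 and 74.2 times the reads of mtl-1 in control(RNAi). With cadmium the ratios were 4.81 to 5.27. All libraries of the 2 groups were separate, with a 10.7-fold lower geometric mean with cadmium. In numr-1/2(RNAi) the ratio was 129 ± 10 (SD, n = 3) without and 6.25 ± 0.12 with cadmium, and in ints-4(RNAi) 29.8 ± 3.5 without and 5.32 ± 0.90 with cadmium. The ratios of the 3 RNAi treatments thus spanned 26.3 to 140.7 without cadmium, where no 2 groups overlapped, and 4.56 to 6.39 with it. The narrow range with cadmium follows from reading mtl-2 with the solution of least spread. With the next solution the ratios with cadmium ran from 1.74 to 6.91 in control(RNAi), from 3.84 to 10.8 in numr-1/2(RNAi) and from 3.18 to 9.35 in ints-4(RNAi), still below all ratios without it. For each of the 3 cadmium comparisons the exact permutation test over libraries, two-sided, gave p = 0.1, the smallest that 3 against 3 libraries allow (0.117 adjusted over the 7 comparisons made), so these ratios are given as separate ranges.

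**Figure D3:**
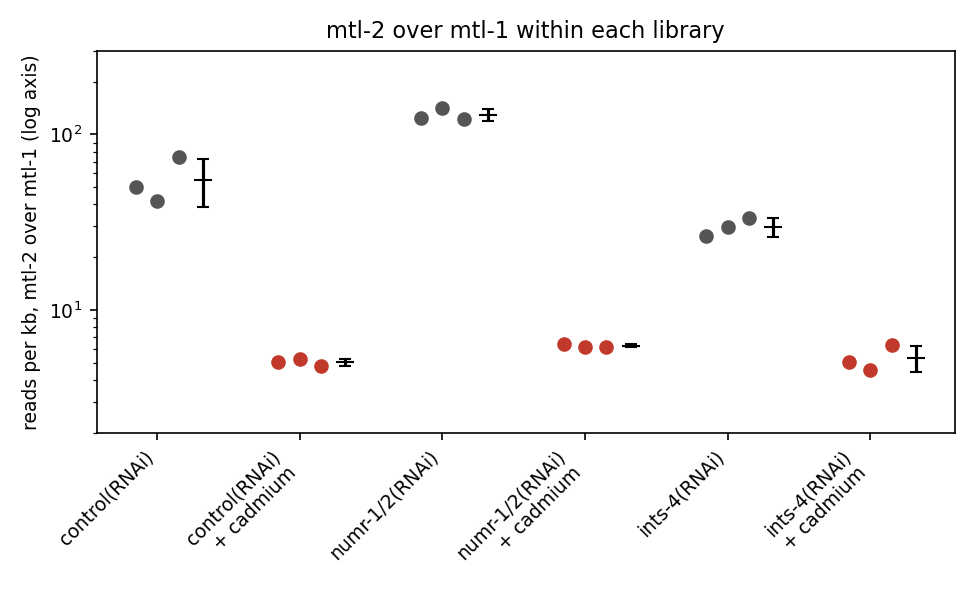
Reads per kilobase of transcript of mtl-2 over those of mtl-1 within each of the 18 libraries on a log axis, grey without and red with cadmium; bars are the mean and SD of 3 libraries. The 9 exposed libraries, read with the solution of least spread for mtl-2, lie between 4.56 and 6.39 (1.74 to 10.8 with the next solution), and the unexposed ones between 26.3 and 140.7.

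Other genes known from cadmium exposure were set beside the metallothioneins, from a list of 12 genes of which 10 could be tested. With cadmium, 7 rose and 1 fell in control(RNAi), 6 rose and 1 fell in numr-1/2(RNAi), and 9 rose and none fell in ints-4(RNAi). Of all genes, 15.6%, 17.8% and 9.24% rose and 17.4%, 18.8% and 6.68% fell in the same order. The list medians were 1.02, 0.70 and 0.96 on the log2 scale, and the medians of all genes -0.04, 0.00 and -0.02. cdr-1, which encodes a lysosomal membrane protein induced by cadmium, had 117 ± 30 scaled reads in control(RNAi) and 16812 ± 2326 with cadmium, and its log2 fold changes of 7.17, 6.20 and 7.17 in the 3 RNAi treatments exceeded those of mtl-1. cdr-4, of the same family, rose by 3.03, 3.24 and 2.21. gcs-1, which encodes the first enzyme of glutathione synthesis, rose by 1.19, 0.89 and 0.52, less than mtl-1 and, in control(RNAi), by about as much as mtl-2. pcs-1, the phytochelatin synthase gene, rose by 0.54, 0.34 and 0.52. All of these were called in each RNAi treatment. hmt-1, a transporter tied to phytochelatins, rose in ints-4(RNAi), by 0.54, and had values of 0.10 (adjusted p = 0.544) in control(RNAi) and -0.21 (adjusted p = 0.161) in numr-1/2(RNAi). With cadmium in both groups, 9 of the 10 were called lower in numr-1/2(RNAi) than in control(RNAi), as mtl-1 and 21.9% of all genes were, with a list median of -0.54. The 9 include numr-1 and numr-2, which this RNAi targets. In numr-1/2(RNAi) without cadmium, 1 of the 10 was called higher and 3 lower, beside 21.8% and 21.9% of all genes. For the difference of cadmium responses from control(RNAi), 1 of the 10 was called lower and none higher, where 3.58% of all genes were called lower. The call of mtl-1 was lost with libraries scaled by their total reads, as given above.

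Genes for zinc and iron handling, of which 11 of 12 could be tested, moved both ways. With cadmium, 4 rose and 3 fell in control(RNAi), 5 rose and 3 fell in numr-1/2(RNAi), and 5 rose and none fell in ints-4(RNAi), beside the same 15.6%, 17.8% and 9.24% of all genes that rose and 17.4%, 18.8% and 6.68% that fell. cdf-2, a transporter that stores zinc in intestinal granules, rose by 1.61, 1.10 and 3.26 in the same order of RNAi treatments. The smallest value of cdf-2 was in numr-1/2(RNAi) and the largest in ints-4(RNAi), which is also the order of mtl-2. The difference of the response in ints-4(RNAi) from that in control(RNAi) passed the test for cdf-2, at 1.65 ± 0.16 (adjusted p = 2.75e-06 by limma). Without cadmium, however, cdf-2 had 275 to 393 scaled reads in ints-4(RNAi) against 792 to 880 in control(RNAi). With cadmium it had 3124 to 3365 against 2498 to 2734. In ints-4(RNAi) without cadmium, 1 of the 11 genes was called higher and 6 lower, beside 18.8% and 20.2% of all genes. ttm-1, a zinc exporter of the same family, rose by 1.26, 0.50 and 1.20, and its response was smaller in numr-1/2(RNAi) than in control(RNAi) by a difference of -0.76 (adjusted p = 0.000697 by limma). smf-3, a divalent metal importer of the intestine, rose by 1.06, 1.87 and 2.53. Without cadmium smf-3 had 40 ± 8 scaled reads in ints-4(RNAi) and 138 ± 35 in control(RNAi), and with it 232 ± 20 and 287 ± 57. The ferritin gene ftn-1 had 81 ± 32 scaled reads in control(RNAi) and 24 ± 10 with cadmium, where it fell by 1.72, and ftn-2 fell by 0.53 there and by 1.41 in numr-1/2(RNAi).

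**Figure D4:**
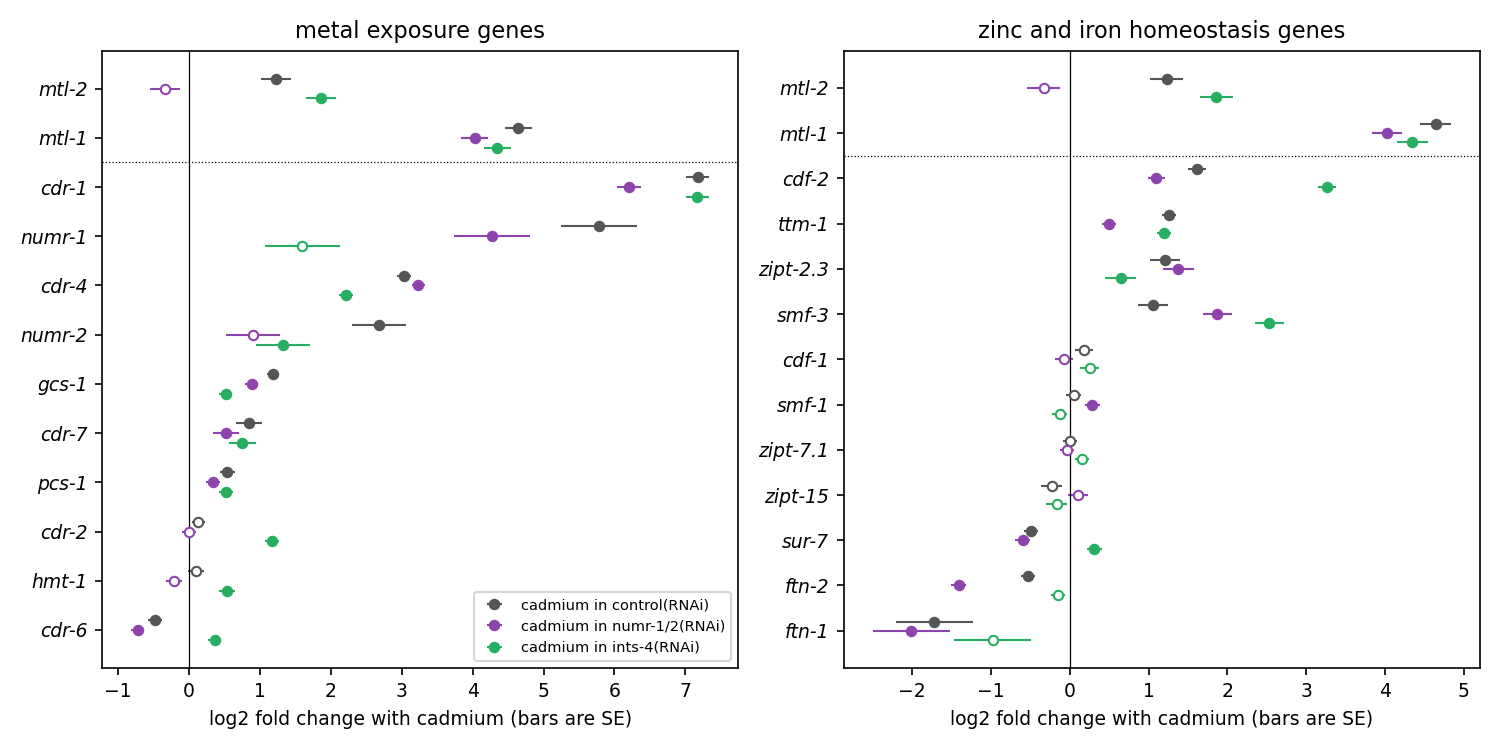
Log2 fold changes with cadmium by limma with their SE in control(RNAi) (grey), numr-1/2(RNAi) (purple) and ints-4(RNAi) (green) for 10 metal exposure genes and 11 zinc and iron genes, with mtl-1 and mtl-2 above the dotted line; filled points passed an adjusted p of 0.05. Of the listed genes, cdr-1 lies above mtl-1 in all 3 RNAi treatments and numr-1 in the first 2, and the single open point of mtl-2, at -0.33, is that of numr-1/2(RNAi).

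Of 10 regulators tied to metallothionein genes or to stress responses, 2 rose and 2 fell with cadmium in control(RNAi), near the 15.6% and 17.4% of all genes. elt-2, the gene of the intestinal GATA factor, fell from 712 ± 67 to 412 ± 31 scaled reads, by 0.79 on the log2 scale (adjusted p = 2.7e-06 by limma), and elt-7, of a second intestinal GATA factor, fell by 1.16. Both thus fell while mtl-1 and mtl-2 rose, whereas in ints-4(RNAi) elt-2 rose by 0.47 with cadmium. hizr-1 rose by 0.69 in control(RNAi) and by 2.51 in ints-4(RNAi), and had a value of 0.11 (adjusted p = 0.725) in numr-1/2(RNAi). pqm-1, which encodes a zinc finger factor opposed to DAF-16 in the nucleus, rose by 1.41, 1.21 and 0.79. daf-16 had values of 0.27, 0.36 and -0.23, and passed the test in none of the 3 cadmium comparisons. With cadmium in numr-1/2(RNAi), 1 of the 10 rose and 3 fell, beside 17.8% and 18.8% of all genes. In ints-4(RNAi) 3 rose and none fell with cadmium, beside 9.24% and 6.68%. Without cadmium, ints-4(RNAi) lowered elt-2 by 1.29, elt-7 by 2.03 and hizr-1 by 2.27, in the comparison in which mtl-1 rose. There 1 of the 10 was called higher and 4 lower, beside 18.8% and 20.2% of all genes. pqm-1 had 799 ± 69 scaled reads there against 496 ± 34 in control(RNAi). In numr-1/2(RNAi) without cadmium, where mtl-2 rose, elt-2 had a value of -0.05 (adjusted p = 0.662) and hizr-1 of 0.29 (adjusted p = 0.246). These are transcript levels of whole worms, and the part of these regulators in the results for mtl-1 and mtl-2 was not tested.

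mtl-1 is used as a readout of DAF-16, and 11 of 12 other such readouts could be tested. With cadmium 2 rose and 3 fell in control(RNAi), 4 rose and 3 fell in numr-1/2(RNAi), and 5 rose and none fell in ints-4(RNAi). Of all genes, 15.6%, 17.8% and 9.24% rose and 17.4%, 18.8% and 6.68% fell in the same order. Only in control(RNAi) was the share of the list that rose near that of all genes. The list medians were 0.30, 0.39 and 0.49 on the log2 scale, and the medians of all genes -0.04, 0.00 and -0.02. sod-3, which encodes a mitochondrial superoxide dismutase, had 42 ± 19 scaled reads in control(RNAi) and 48 ± 1 with cadmium, a log2 fold change of 0.27 (adjusted p = 0.505). hsp-12.6, a small heat shock protein gene, fell by 1.93 in control(RNAi). dod-3 rose by 1.54, 4.67 and 1.44 from 31 ± 12, 8 ± 8 and 68 ± 10 scaled reads. ints-4(RNAi) without cadmium, where mtl-1 rose, raised sod-3 by 1.05 and hsp-12.6 by 1.81, while 3 of the list rose and 4 fell (18.8% and 20.2% of all genes). In numr-1/2(RNAi) without cadmium 1 rose and 7 fell (21.8% and 21.9% of all genes), with a list median of -0.68 beside -0.01 for all genes. The part of DAF-16 in the results for mtl-1 and mtl-2 was not tested.

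The genes next to each metallothionein gene were measured as well. T08G5.1 starts 93 bases from mtl-2 on the opposite strand, so that the 2 genes point away from each other. In control(RNAi) it had 16 ± 8 scaled reads without and 301 ± 82 with cadmium, and its log2 fold changes with cadmium were 4.20, 2.90 and 4.82 in the order of RNAi treatments used above, all called by limma. T08G5.1 thus rose by more than mtl-2 in each, and in numr-1/2(RNAi), where mtl-2 did not pass the test, it rose too. Its value for numr-1/2(RNAi) without cadmium was 0.77 (adjusted p = 0.104). On the other side srh-308, a chemoreceptor gene, had group means of at most 3 scaled reads and was not tested. W02F12.8, 384 bases from mtl-1, fell by 1.83, 2.40 and 2.13 with cadmium, and K11G9.5 fell by 0.80 and 1.06 in control(RNAi) and numr-1/2(RNAi). Neither neighbour of mtl-1 rose with cadmium.

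The genes most like each member over the 5 deposited comparisons were taken as those with the smallest root mean square difference of the log2 fold changes among 11799 genes. For mtl-1 these were gba-2 (difference 0.68), R08F11.4 (0.72), F09C6.13 (0.84), bcmo-2 (0.84) and clec-3 (0.85). Each had log2 fold changes of the deposited values of at least 2.51 in all 3 cadmium comparisons. gba-2, the nearest, had 19 ± 8 scaled reads in control(RNAi) and 431 ± 82 with cadmium. For mtl-2 they were T05A7.1 (0.41), fipr-7 (0.45), argn-1 (0.47), F28F5.6 (0.52) and vrp-1 (0.53). All 5 had a higher deposited value with cadmium in control(RNAi) and ints-4(RNAi) and in numr-1/2(RNAi) without cadmium. Both sets were chosen by these same log2 fold changes, so the directions they share with a member follow from the choice. The measure takes in the size of changes as well as their direction. By this measure mtl-2 stood at place 550 of 11799 for mtl-1, and mtl-1 at place 11688 for mtl-2, with a difference of 2.79.

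**Figure D5:**
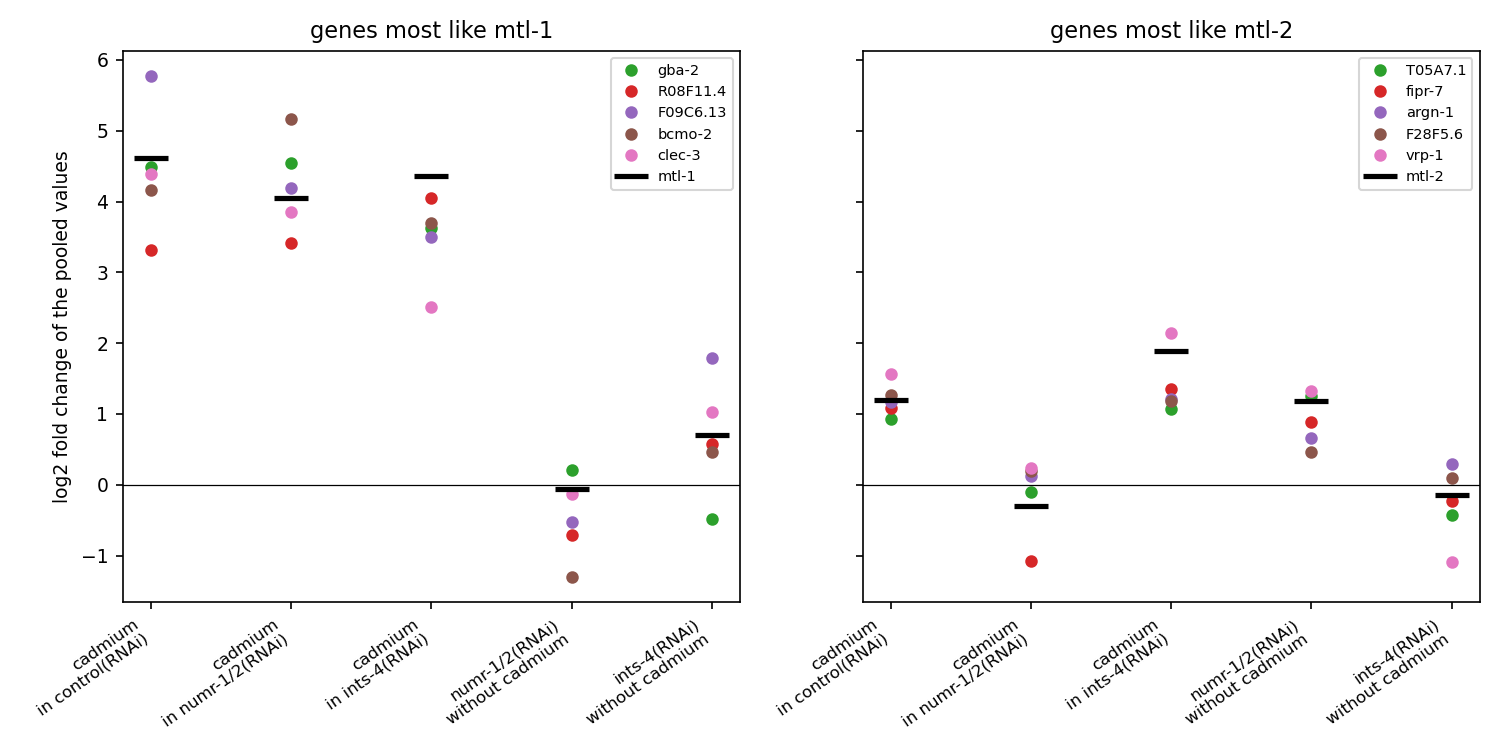
Log2 fold changes of the deposited group values in the 5 deposited comparisons for the 5 genes most like mtl-1 (left) and the 5 most like mtl-2 (right), with the member as a black bar. mtl-1 stands at 4.61, 4.05 and 4.36 in the cadmium comparisons, and mtl-2 at 1.20, -0.30 and 1.89.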

How the data were processed

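RNA of 18 whole-worm samples was selected with oligo(dT) and sequenced. According to the submitters' processing notes the tools were HISAT2 2.1.0, HTSeq 0.6.1 and Cufflinks 2.1.1; the genome build and whether counting used strand are not given in the sources used here. The deposited expression signal of each group is 1 value per gene in each of 5 tables, made by the authors as a mean over 3 libraries of reads divided by size factors. The authors' fold changes, p-values and splicing statistics in these files were not used. As the tables hold group values, the main planned values are log2 ratios of group values without a test, and for RNAi treatments with cadmium the sum of the log2 ratios that connect them.

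After the data were seen, the whole reads behind each mean were solved. For control(RNAi), present in 3 tables, all solutions were within 5.07e-07 of whole numbers. From 1 table alone, 252 of 259 values between 30000 and 50000, and 230 of 232 between 20000 and 30000, gave the same reads. Genes with several like solutions (190) were left out of tests. Genes with a mean of at least 10 scaled reads (16096) were tested on log2(scaled reads + 1), so fold changes of low genes are understated, with limma 3.58.1 (trended, all 6 groups, Benjamini-Hochberg adjustment over all genes tested, threshold 0.05) in R 4.3.3; Python 3.11.15, NumPy 2.4.6 and pandas 2.3.3 did the rest. No count model was run, since the tables hold means and not counts. Solving and testing were tested on simulated data. Alternatives were other scaling, filters, pseudocounts, weights, groups, solutions and leaving out each library.

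Members and gene lists were chosen with earlier results of these data known. Named genes were the members, their neighbours, dsRNA targets, the 5 most like each member among genes with a mean value of at least 100, and up to 4 per list and comparison; gcs-1 and pcs-1 were added after their values were seen. Symbols matched 43623 of 47020 gene rows; numr-2 was matched by RefSeq coordinates of WBcel235, and 1 listed gene, cdr-5, is not analysed here.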

Additional observations from a re-analysis of the deposited data

Results flagged for a closer look

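The difference between the cadmium response of mtl-2 in numr-1/2(RNAi) and that in control(RNAi) passed the interaction test by limma, at -1.56 on the log2 scale with an adjusted p of 0.00299. In this test 3.58% of genes were called lower. Read with the solution of least spread, all 3 exposed libraries of control(RNAi) were above all 3 unexposed ones. In numr-1/2(RNAi) the exposed and unexposed libraries overlapped. With the next solution 1 exposed library of control(RNAi) would lie in the unexposed range. Leaving out each library in turn gave -1.77 to -1.31, with adjusted p of 0.000954 to 0.0107 by limma. These fits all keep the solution of least spread, so they do not test that choice. With the next whole-read solution of mtl-2 in the exposed groups the value was -1.44 and the adjusted p 0.266.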

How the results depend on the processing

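No paired analysis was possible because the libraries solved from the group values carry no replicate number. The planned log2 fold changes of the members were recomputed with a pseudocount of 1, centring, equal totals and the other ways of combining tables. Each moved by less than the spread between libraries. All kept their direction except, with equal totals, mtl-1 in numr-1/2(RNAi) and mtl-2 in ints-4(RNAi), both without cadmium. There the values went from -0.06 to 0.05 for mtl-1 and from -0.15 to 0.001 for mtl-2. The ratio of mtl-2 to mtl-1 by coding length was 143 in numr-1/2(RNAi), 6.91 there with cadmium and 5.56 in control(RNAi) with cadmium, and with the next solution of mtl-2 it was 6.40 in exposed numr-1/2(RNAi).

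Of the deposited values, 3225, 3436 and 1778 genes changed at least 2-fold with cadmium (control, numr-1/2, ints-4), 3717 and 4023 by numr-1/2 and ints-4 RNAi without it, and 3267 and 3661 with it. In that order, 1059, 994, 403, 860, 1511, 703 and 1337 changed 4-fold. With a mean of at least 10, counts were 1984, 2279 and 923 for cadmium and 2108 and 2353 for RNAi with cadmium. For cadmium in ints-4(RNAi), genes above 0 in both groups gave 3562.

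For mtl-2 with the next solution of its reads, limma gave 0.99 (adjusted p = 0.14) for cadmium in control(RNAi), 1.22 (adjusted p = 0.055) for numr-1/2(RNAi) without cadmium and -1.44 (adjusted p = 0.266) for the difference of responses in numr-1/2(RNAi). For mtl-1 with cadmium, numr-1/2(RNAi) against control(RNAi) was -0.47 with scaling by total reads, and ints-4(RNAi) against control(RNAi) was past the threshold at 0.45 with voom weights and with 2 groups alone. Leaving out 1 library each gave ranges of -0.80 to -0.55 and 0.38 to 0.53 for these, of 0.32 to 0.62 for mtl-2 in ints-4(RNAi) with cadmium, of -0.87 to -0.44 for the mtl-1 response in numr-1/2(RNAi) and of 0.43 to 0.89 for the mtl-2 response in ints-4(RNAi). The causes were not tested.

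Scaling by total reads shifted the median of all genes by up to 0.18. Genes called higher and lower went from 2511 and 2799 to 3242 and 1950 for cadmium in control(RNAi), from 2859 and 3018 to 4178 and 1766 in numr-1/2(RNAi), from 3507 and 3527 to 4420 and 2704 for numr-1/2(RNAi) alone, from 3027 and 3244 to 4427 and 2415 for ints-4(RNAi) alone and from 3586 and 3531 to 5026 and 2112 for numr-1/2(RNAi) with cadmium. For the differences of responses they went from 649 and 576 to 811 and 426 in numr-1/2(RNAi) and from 1288 and 888 to 868 and 1343 in ints-4(RNAi). Fitted alone, cadmium in control(RNAi) gave 1660 and 1692. Without library c of ints-4(RNAi), cadmium there gave 1042 and 622 in place of 1488 and 1075.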
